A study of Mus musculus with 64 samples.

Results

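The IL-1 and IL-18 cytokines and the proteins that oppose them were followed at the transcript level in mouse macrophages grown from bone marrow. They comprise the agonists Il1a, Il1b and Il18, the IL-1 receptor antagonist Il1rn and the IL-18 binding protein gene Il18bp. Each gene was read from the brightest probe set that carries its symbol alone, and each of the 5 had exactly 1 such probe set among 18820 genes measured. RNA of single culture wells was hybridised to 64 Affymetrix arrays in 32 groups of 2 wells. For BALB/c cells the treatments were the type I interferon IFN-beta (10 U/ml), the type II interferon IFN-gamma (10 U/ml) and bacterial LPS (5 ng/ml). For C57BL/6 cells they were 3 doses of LPS (0.5, 5 and 50 ng/ml), with collection at 1, 2, 4, 8 and 24 h. A control group of each strain was collected at 0 h, and untreated wells at later times are not among the samples. All cells came from male mice aged 7 to 8 weeks, were kept in CSF1 at 10000 U/ml and were seeded at 200000 per well on day 6, a day before treatment. Values are log2 of the deposited intensity, and differences are given on that scale. The labels give separate wells but no separate mice, so p-values here measure the spread between wells.

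IL-1 alpha and IL-1 beta act through the same receptor and drive fever and inflammation. Il1rn encodes a secreted protein that occupies this receptor without signalling. IL-1 beta and IL-18 are made as inactive precursors that inflammasome caspases cut, so transcript levels do not give the amount of active cytokine. IL-18 makes lymphocytes release IFN-gamma, and Il18bp encodes a soluble protein that captures it, known as a target of IFN-gamma. Macrophages can make all of these proteins.

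The 250 bases before the annotated start of Il1a, Il1b and Il1rn are shown because under BALB/c LPS both agonists rose by 8.08 and 8.53 log2 at their largest, against 1.56 for the antagonist on the same chromosome. They are RefSeq sequences of GRCm38.p6, written 5′ to 3′ on the gene's strand, from chr2:129309973-129310222 (minus strand), chr2:129371140-129371389 (minus strand) and chr2:24336610-24336859 (plus strand, the first of 3 annotated Il1rn starts).
Il1a: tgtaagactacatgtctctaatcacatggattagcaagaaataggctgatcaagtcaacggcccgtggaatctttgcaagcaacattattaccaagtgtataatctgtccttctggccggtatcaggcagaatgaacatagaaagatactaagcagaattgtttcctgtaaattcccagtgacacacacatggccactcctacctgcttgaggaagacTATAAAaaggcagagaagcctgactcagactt
Il1b: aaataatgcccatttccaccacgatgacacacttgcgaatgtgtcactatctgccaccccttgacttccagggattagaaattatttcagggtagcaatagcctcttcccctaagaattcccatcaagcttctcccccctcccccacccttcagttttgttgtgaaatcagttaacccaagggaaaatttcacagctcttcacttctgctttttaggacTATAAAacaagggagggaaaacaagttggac
Il1rn: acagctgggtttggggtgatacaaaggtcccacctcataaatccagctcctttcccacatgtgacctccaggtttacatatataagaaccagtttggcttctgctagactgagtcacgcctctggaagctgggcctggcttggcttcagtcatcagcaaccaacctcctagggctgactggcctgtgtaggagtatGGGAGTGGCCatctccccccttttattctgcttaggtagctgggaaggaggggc
Capitals mark matches to 2 of the motifs searched. The TATA box (TATAAA, gene strand only) was found in Il1a at bases -32 to -27 and in Il1b at -31 to -26, counted from the start, and 7.59% of 32851 annotated promoters of the same length hold it. The kappaB-like motif (GGGANNNNCC, both strands) was found at this Il1rn start at bases -54 to -45, and 17.6% of all promoters hold it. The ISRE-like motif (GAAANNGAAA, held by 2.98%) and the GAS-like motif (TTCNNNGAA, held by 7.02%), both searched on both strands, were not found in these windows of any of the 5 genes. The other 2 Il1rn starts and the windows of Il18 and Il18bp held none of the 4 motifs. The Il1rn window shown is the first by position, and which of the 3 starts these cells use was not tested. No matches overlapped each other. In RefSeq, Il1a and Il1b are neighbouring genes.

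Some arrays depart from their replicate or label, and they bear on Il1a and Il1b above all. In 5 pairs, more than 1.5 log2 separated the replicates in 10 or more genes, against at most 7 genes in any other pair. These counts, and the distances to neighbouring times below, were taken after each gene's fitted difference between the batches described below was subtracted. The arrays farther from the neighbouring times were replicate 1 of C57BL/6 LPS 50 ng/ml at 1 h, of C57BL/6 LPS 0.5 ng/ml at 1 h, of C57BL/6 LPS 5 ng/ml at 24 h and of IFN-gamma at 2 h, and replicate 2 of IFN-gamma at 4 h. That choice was close for IFN-gamma at 2 h, with mean distances of 1.107 log2 for replicate 1 and 1.104 for replicate 2 over the genes that separate them, and for C57BL/6 LPS 5 ng/ml at 24 h, with 1.964 and 1.711. Both IFN-gamma arrays held transcripts typical of LPS: the chemokine Cxcl2 was 9.46 in replicate 1 at 2 h and 10.55 in replicate 2 at 4 h, against 5.90 and 5.78 in their replicates. At 24 h of C57BL/6 LPS 5 ng/ml, replicate 2 held the BALB/c-type transcript Hal at 9.21, against 4.74 in replicate 1. The arrays labelled C57BL/6 0 h also held some LPS-type transcripts, since Nos2 was 4.41 and 4.56 after 1 h of LPS at 5 ng/ml, against 10.63 and 10.45 on these arrays. Ptgs2, Il6, Lcn2 and Ccl5 were likewise higher at 0 h than at that 1 h. Cxcl1 went the other way, at 5.85 and 5.96 at 0 h and 10.45 and 10.15 at 1 h. So did Cxcl2, at 10.1 and 9.8 against 12.6 and 12.5. The C57BL/6 changes of the members are therefore given from 1 h as well. A second split, of 53 arrays in a larger and 11 in a smaller batch, came from probe sets without a gene. Both IFN-beta arrays at 4 h fell in the smaller batch, and both BALB/c 0 h arrays in the larger. For every gene below, time and batch therefore cannot be told apart in the IFN-beta values at 4 h. Macrophage markers were high on all 64 arrays, with a log2 summed intensity of 7 markers of 14.71 to 15.13 in BALB/c and 14.82 to 15.23 in C57BL/6 cells. For 9 granulocyte markers the sum was 7.21 to 7.58 in BALB/c and 7.42 to 8.64 in C57BL/6 cells, and the highest value of a single marker was 7.54, of Ngp. Of the 9, S100a8 and Elane lay above the 40th percentile of all values (4.19) on all 64 arrays, S100a9 on 57, Ngp on 50, Mpo on 46, Ltf on 36, Camp on 19, and Retnlg and Cxcr2 on 0. The part of such cells in the results was not tested. In such bulk RNA, fewer cells and less RNA per cell cannot be told apart.

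Il1a and Il1b spanned the widest ranges over the 32 groups. Group means of Il1a lay between 3.92 (IFN-beta, 8 h) and 12.96 (BALB/c LPS, 8 h), a range of 9.04 log2, and those of Il1b between 4.04 (IFN-beta, 4 h) and 12.82 (BALB/c LPS, 8 h), a range of 8.78. The range was 3.79 for Il18, between 5.85 and 9.63, and 4.05 for Il18bp, between 5.95 and 10.00. Il1rn had the narrowest, 2.22 log2, between 8.47 and 10.68, and it lay far above 4.19 in every group. When the 32 groups were ordered by level, the arrays of neighbouring groups overlapped in 16 of 31 cases for Il1a, 20 for Il1b, 22 for Il1rn, 28 for Il18 and 22 for Il18bp, so most single steps in the order lie within the spread of the wells. The pooled SD of wells was 0.85 for Il1a and 1.00 for Il1b with all arrays, and 0.19 and 0.28 without the 5 pairs above. For Il1rn, Il18 and Il18bp it was 0.16, 0.20 and 0.22, near the all-gene median of 0.17. Il1a and Il1b each had 4 replicate gaps over 1 log2, all in the 5 pairs. Those pairs were picked by wide replicate gaps over all genes, Il1a and Il1b included. The smaller SEs and p-values of Il1a and Il1b without the 5 arrays, given below, therefore follow in part from that choice.

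In BALB/c cells, LPS took both IL-1 agonists far above their 0 h level within the first hour. Il1a was 4.92 and 4.85 at 0 h, 10.91 and 11.11 at 1 h, 11.32 and 11.44 at 2 h, 12.03 and 11.81 at 4 h, 12.98 and 12.95 at 8 h, and 12.60 and 12.92 at 24 h. Il1b was 4.22 and 4.37 at 0 h, 11.32 and 11.68 at 1 h, 11.51 and 11.59 at 2 h, 12.00 and 11.89 at 4 h, 12.84 and 12.80 at 8 h, and 12.25 and 12.80 at 24 h. No treated array of either gene came near those at 0 h. A gene was called changed where limma's F-test over the 5 times gave an adjusted p under 0.05 and at least 1 time differed by 1 log2 or more. All 5 members rose under BALB/c LPS by this rule, where 17.2% of all genes were called, and the median of the members' largest differences was 3.52 against -0.19 over all genes. At 1 h the difference from 0 h was 6.13 ± 0.79 for Il1a and 7.20 ± 0.93 for Il1b (log2 ± SE, n = 2 wells per group), and at 8 h it was 8.08 ± 0.79, or 270-fold (adjusted p = 6.1e-11), and 8.53 ± 0.93 (adjusted p = 8.4e-10). Between 8 and 24 h neither was called (-0.20 ± 0.79 and -0.30 ± 0.93). Counted from 1 h, the further difference at 8 h was 1.95 for Il1a (adjusted p = 0.14) and 1.32 for Il1b (adjusted p = 0.64), and both rises were called once the 5 arrays were left out (adjusted p = 4.1e-11 and 0.0001).

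**Figure D1:**
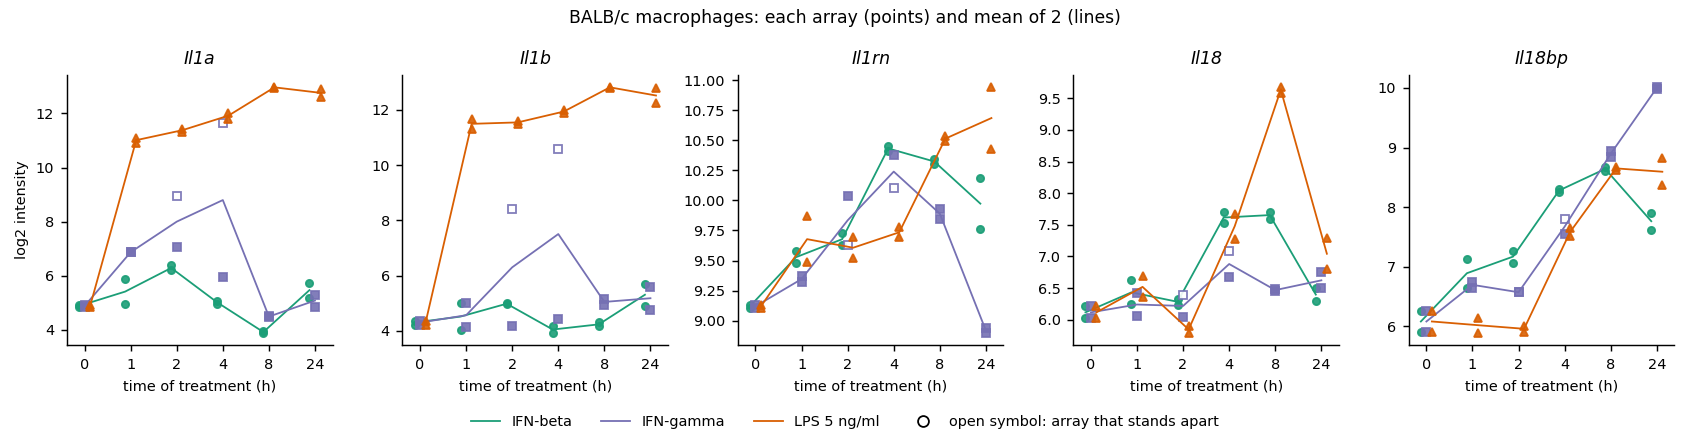
Log2 intensity (vertical axis) of the 5 genes in BALB/c macrophages against hours of treatment (horizontal axis, evenly spaced times), with 1 point per array, lines through the mean of 2 and the same 2 arrays at 0 h in each course. Il1a and Il1b under LPS lie above 10.9 from 1 h on, and the open symbols, arrays that stand apart, lie far above their replicate for Il1a and Il1b under IFN-gamma at 2 and 4 h.

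IFN-beta left both agonists at low levels. Il1a was 4.95 and 5.88 at 1 h, 6.20 and 6.38 at 2 h, 5.06 and 4.98 at 4 h, 3.95 and 3.89 at 8 h, and 5.75 and 5.19 at 24 h, against 4.92 and 4.85 at 0 h. The arrays at 2 h were the highest of this course and those at 8 h the lowest, and neither overlapped 0 h. Il1b lay between 3.92 and 5.70 on the 10 IFN-beta arrays, against 4.22 and 4.37 at 0 h. Over the IFN-beta course 3 of the 5 members rose, Il1rn, Il18 and Il18bp, where 7.92% of all genes were called. Il1a was not called (1.40 ± 0.79 at 2 h, adjusted p = 0.21) and neither was Il1b (1.01 ± 0.93 at 24 h, adjusted p = 0.84). Without the 5 arrays, none of which belongs to this course, the same differences were called with SEs of 0.19 and 0.27. The choice of those arrays by replicate gaps in part sets these SEs. Between 8 and 24 h only Il18 was called with all arrays, where 2.32% of all genes were, and it fell. Il1a differed by 1.55 ± 0.79 and Il1b by 1.07 ± 0.93 over this step, and both rises were called without the 5 arrays (adjusted p = 1.1e-07 and 0.0032).

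Under IFN-gamma the replicates disagreed on the IL-1 agonists. Il1a was 6.87 and 6.88 at 1 h, 8.95 and 7.05 at 2 h, 5.95 and 11.65 at 4 h, 4.47 and 4.52 at 8 h, and 5.31 and 4.86 at 24 h. Il1b was 4.13 and 4.99 at 1 h, 8.41 and 4.19 at 2 h, 4.41 and 10.59 at 4 h, 4.93 and 5.15 at 8 h, and 5.59 and 4.76 at 24 h. High Il1b was confined, within this course, to the 2 arrays that also held Cxcl2 at 9.46 and 10.55, and the part of those transcripts in the result was not tested. With all arrays 4 of the 5 members rose under IFN-gamma, Il1a, Il1b, Il1rn and Il18bp, where 5.37% of all genes were called. The 4 h difference was 3.91 ± 0.79 for Il1a (adjusted p = 2.9e-05) and 3.21 ± 0.93 for Il1b (adjusted p = 0.047), and both calls were lost when only the arrays of this comparison were fitted (adjusted p = 0.1 and 0.58). Il1b differed without the 5 arrays by 0.12 at 4 h and by at most 0.88, at 24 h, and was no longer called. Il1a was still called then, with differences of 1.99 at 1 h, 2.17 at 2 h and 1.06 at 4 h. That fit leaves only 1 well at 2 h and 1 at 4 h. Counted from 1 h, the largest difference of Il1a was downward, -2.38 ± 0.79 at 8 h, and was called (adjusted p = 6.6e-05). Both 1 h arrays, which do not stand apart, gave 6.87 and 6.88 for Il1a against 4.92 and 4.85 at 0 h. Only Il18bp was called between 8 and 24 h of IFN-gamma, where 0.792% of all genes were.

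Set against LPS at matching times, both interferons gave far lower agonist levels. Il1a at 8 h was 3.95 and 3.89 with IFN-beta and 12.98 and 12.95 with LPS, a difference of -9.04 ± 0.79 (adjusted p = 5.7e-17). The IFN-beta mean lies below the 40th percentile of all values, so this 527-fold difference is best read as a lower bound. For Il1b the 8 h difference was -8.59 ± 0.93 (adjusted p = 8e-16). With IFN-gamma at 8 h, the difference from LPS was -8.47 ± 0.79 for Il1a (adjusted p = 1.1e-14) and -7.78 ± 0.93 for Il1b (adjusted p = 6.3e-14). In IFN-beta against LPS 4 members were called, where 14.3% of all genes were. By their largest difference Il18bp was higher and Il1a, Il1b and Il18 lower with IFN-beta. Il18bp was not higher throughout, with means of 8.64 with IFN-beta and 8.65 with LPS at 8 h, and 7.76 and 8.59 at 24 h. In IFN-gamma against LPS all 5 were called, where 13.6% of all genes were. By their largest difference Il18bp was higher and the rest lower. The rest were not lower at every time, since Il1rn at 4 h had means of 10.24 with IFN-gamma and 9.73 with LPS.

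Il1rn, the antagonist, was already high before treatment and rose by 1.12 to 1.56 log2 under the 3 BALB/c treatments. Its levels were 9.13 and 9.11 at 0 h. With IFN-beta it was 9.48 and 9.58 at 1 h, 9.73 and 9.63 at 2 h, 10.45 and 10.41 at 4 h, 10.30 and 10.34 at 8 h, and 9.76 and 10.18 at 24 h. With IFN-gamma it was 9.37 and 9.32 at 1 h, 9.63 and 10.04 at 2 h, 10.38 and 10.10 at 4 h, 9.85 and 9.93 at 8 h, and 8.94 and 8.90 at 24 h. The IFN-gamma course thus ended below the 0 h arrays, whereas every IFN-beta array stayed above them. With LPS it was 9.49 and 9.87 at 1 h, 9.52 and 9.69 at 2 h, 9.78 and 9.69 at 4 h, 10.49 and 10.53 at 8 h, and 10.42 and 10.94 at 24 h. The largest differences from 0 h were 1.31 ± 0.16 with IFN-beta at 4 h (2.48-fold, adjusted p = 2.2e-08), 1.12 ± 0.16 with IFN-gamma at 4 h (adjusted p = 2.1e-08, and 1.26 without the 5 arrays) and 1.56 ± 0.16 with LPS at 24 h (2.96-fold, adjusted p = 9.7e-11). The IFN-beta arrays at 4 h are both of the smaller batch. Those at 8 h, of the larger batch like 0 h, lay 1.18 and 1.22 above 0 h. At 24 h Il1rn was 9.76 and 10.18 with IFN-beta and 8.94 and 8.90 with IFN-gamma, a difference of 1.05 ± 0.16 (adjusted p = 2.6e-05). This difference was 0.84 within the larger batch, 0.87 with batch as a covariate and 0.84 without replicate 2 of IFN-beta at 24 h, each below the minimum of 1 log2. Counted from 1 h, the 4 h differences were 0.90 with IFN-beta and 0.89 with IFN-gamma, and both calls were lost. The IFN-gamma rise from 0 h was 0.98 within the larger batch and 0.94 with the covariate, also below it. With IFN-gamma, Il1rn at 24 h differed from LPS by -1.77 ± 0.16 (adjusted p = 3.2e-11).

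Il18 rose late and briefly, with its peak at 8 h of LPS. Under BALB/c LPS it was 6.02 and 6.21 at 0 h, 6.35 and 6.69 at 1 h, 5.79 and 5.90 at 2 h, 7.68 and 7.28 at 4 h, 9.68 and 9.59 at 8 h, and 6.80 and 7.29 at 24 h. The 8 h arrays lay above all others of the course, and the arrays at 4 and 24 h overlapped. The rise at 8 h was 3.52 ± 0.19 (11.4-fold, adjusted p = 5.1e-19), and the difference of 24 h from 8 h was -2.59 ± 0.19 (adjusted p = 9.6e-14). Il18 was the only member called in that step, where 6.06% of all genes were. Under IFN-beta Il18 was 7.70 and 7.53 at 4 h, 7.71 and 7.60 at 8 h, and 6.30 and 6.49 at 24 h, against 6.02 and 6.21 at 0 h. It rose by 1.54 ± 0.19 at 8 h (2.90-fold, adjusted p = 8.7e-10) and differed by -1.26 ± 0.19 between 8 and 24 h (adjusted p = 5e-06). Under IFN-gamma it was 6.68 and 7.08 at 4 h, 6.49 and 6.45 at 8 h, and 6.50 and 6.75 at 24 h, and the 4 h difference of 0.76 ± 0.19 did not reach the minimum (adjusted p = 0.012), nor did that of 0.56 without the 5 arrays (adjusted p = 0.082). At 8 h Il18 was 1.18 ± 0.19 higher with IFN-beta than with IFN-gamma (adjusted p = 2.9e-05), and IFN-beta differed from LPS by -1.98 ± 0.19 (adjusted p = 7.6e-10). In RefSeq the span of Il18 overlaps those of Bco2 and Tex12, and whether those genes share signal with its probe set was not tested.

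Il18bp, whose protein neutralises IL-18, reached its highest level of the whole series after 24 h of IFN-gamma. With IFN-gamma it was 5.90 and 6.26 at 0 h, 6.64 and 6.75 at 1 h, 6.57 and 6.57 at 2 h, 7.55 and 7.79 at 4 h, 8.85 and 8.94 at 8 h, and 9.98 and 10.02 at 24 h. Each step from 2 h on was upward with no overlap of arrays, and the 24 h arrays stood above all other arrays of the series. The difference from 0 h at 24 h was 3.92 ± 0.21 (15.2-fold, adjusted p = 2.2e-18), and that between 8 and 24 h was 1.11 ± 0.21 (adjusted p = 0.00034). With IFN-beta it was 6.65 and 7.13 at 1 h, 7.07 and 7.27 at 2 h, 8.30 and 8.25 at 4 h, 8.68 and 8.60 at 8 h, and 7.62 and 7.90 at 24 h. This course peaked at 8 h, at 2.56 ± 0.21 above 0 h (5.91-fold, adjusted p = 1.6e-12). With LPS it was 5.89 and 6.14 at 1 h and 5.90 and 6.01 at 2 h, close to 0 h, then 7.52 and 7.64 at 4 h, 8.67 and 8.63 at 8 h, and 8.82 and 8.36 at 24 h. The LPS rise at 8 h was 2.57 ± 0.21 (adjusted p = 3.2e-17). At 1 to 2 h both interferons gave Il18bp levels above all LPS arrays of those times, with a difference of 1.21 ± 0.21 for IFN-beta at 2 h (adjusted p = 1.7e-07). At 24 h Il18bp differed by -2.24 ± 0.21 between IFN-beta and IFN-gamma (adjusted p = 1.2e-09), and it was 1.41 ± 0.21 higher with IFN-gamma than with LPS (adjusted p = 1.1e-06). In the comparison of both interferons 4 members were called, where 3.96% of all genes were. By their largest difference Il1rn and Il18 were higher and Il1a and Il18bp lower with IFN-beta. At 2 and 4 h, however, Il18bp was higher with IFN-beta than with IFN-gamma, with no overlap of arrays. Il1a there differed by -3.78 ± 0.79 at 4 h and, without the 5 arrays, by -1.46 ± 0.19 at 1 h, and it was called in both, but not when only the arrays of this comparison were fitted (adjusted p = 0.15).

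To follow antagonist against agonist within an array, the change of the agonist from 0 h was subtracted from that of its antagonist. For Il1rn minus Il1b, BALB/c LPS gave -6.65 ± 0.02 at 1 h, -6.77 ± 0.06 at 2 h, -7.03 ± 0.02 at 4 h, -7.13 ± 0.05 at 8 h and -6.67 ± 0.02 at 24 h (mean ± SD, n = 2). The agonist's change thus exceeded that of the antagonist by nearly the same amount at all 5 times. With IFN-beta the difference was 1.56 ± 0.15 at 4 h, where both arrays are of the smaller batch. It was 1.27 ± 0.12 at 8 h and -0.16 ± 0.86 at 24 h. For Il18bp minus Il18, IFN-gamma gave 2.47 ± 0.09 at 8 h and 3.42 ± 0.15 at 24 h, and IFN-beta gave 1.03 ± 0.03 and 1.40 ± 0.06 at the same times. BALB/c LPS gave -0.94 ± 0.04 at 8 h and 1.59 ± 0.67 at 24 h, the sign turning as Il18 returned toward its early level. In C57BL/6 cells at 8 h of LPS the values were 0.58 ± 0.18 at 0.5 ng/ml, -0.16 ± 0.05 at 5 ng/ml and 0.01 ± 0.24 at 50 ng/ml, and at 24 h they were 1.27 ± 0.69, 1.71 ± 0.43 and 1.46 ± 0.21. These values have no test, and those of C57BL/6 cells share the 0 h arrays described above.

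**Figure D2:**
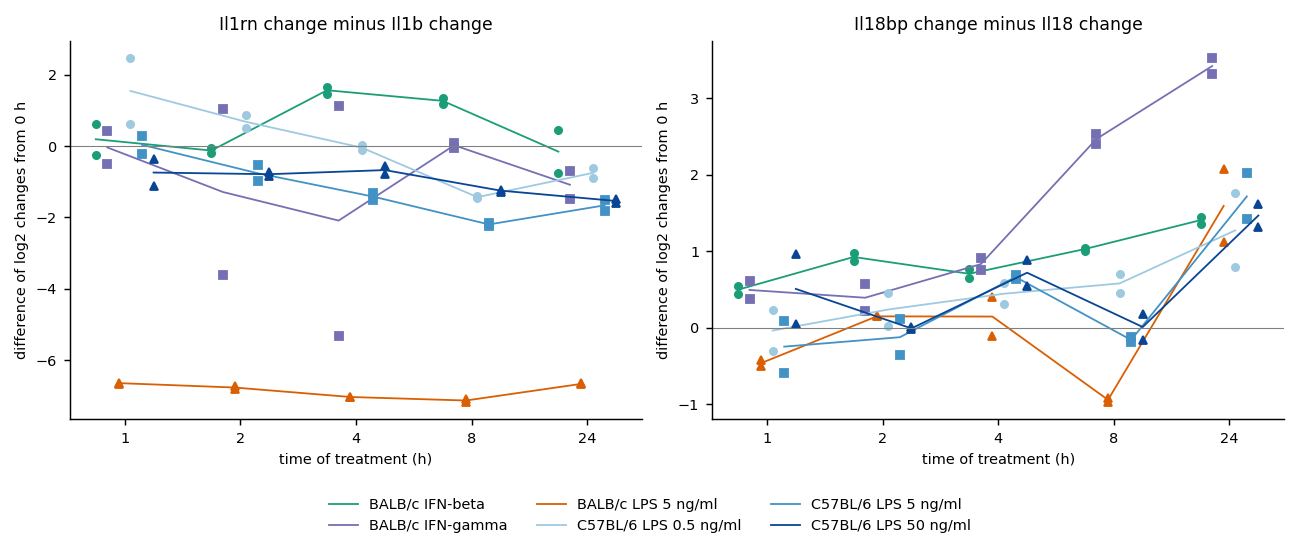
Difference between the log2 change from 0 h of an antagonist and that of its agonist (vertical axes) against hours of treatment (horizontal axes, evenly spaced times), 1 point per array with lines through the mean of 2, for Il1rn minus Il1b on the left and Il18bp minus Il18 on the right. BALB/c LPS lies near -7 on the left at every time, and IFN-gamma reaches 3.42 at 24 h on the right.

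C57BL/6 cells received LPS at 3 doses, and the IL-1 agonists again rose toward 8 and 24 h. At 0 h Il1a was 8.21 and 7.86 and Il1b 8.36 and 8.33. Il1a at 8 h was 10.02 and 10.15 at 0.5 ng/ml, 12.01 and 11.99 at 5 ng/ml, and 11.01 and 11.12 at 50 ng/ml. Il1b at 8 h was 9.96 and 9.86 at 0.5 ng/ml, 11.88 and 11.83 at 5 ng/ml, and 11.19 and 11.22 at 50 ng/ml. At this time the middle dose gave the highest level of both agonists, with no overlap between doses. By 24 h the arrays of the upper doses overlapped, with Il1a at 11.26 and 11.24 at 0.5 ng/ml, 12.22 and 11.73 at 5 ng/ml, and 11.88 and 11.84 at 50 ng/ml.

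Early after LPS the lowest dose gave the lowest agonist levels. At 2 h Il1a was 8.33 and 8.08 at 0.5 ng/ml, 10.12 and 10.06 at 5 ng/ml, and 10.31 and 10.26 at 50 ng/ml. Il1b at 2 h was 7.49 and 7.07 at 0.5 ng/ml, 9.15 and 9.16 at 5 ng/ml, and 9.26 and 9.09 at 50 ng/ml, so the upper doses overlapped and the lowest stood below the 0 h arrays. By 4 h Il1a was 8.81 and 8.77 at 0.5 ng/ml, 10.71 and 10.51 at 5 ng/ml, and 9.87 and 9.87 at 50 ng/ml, with no overlap. At 1 h Il1a was 8.14 and 5.83 at 0.5 ng/ml, 8.56 and 8.21 at 5 ng/ml, and 10.14 and 8.56 at 50 ng/ml, where the first array of the lowest and of the highest dose stands apart. In both, the higher value of the pair came with more of the LPS-type transcript Lcn2 (9.53 against 6.63, and 11.05 against 7.46). Nos2, Ptgs2, Il6 and Ccl5 were also higher on those arrays. Cxcl1 was not clearly so, at 8.09 against 8.08 and 10.28 against 10.54, nor was Cxcl2 at 50 ng/ml, at 12.58 against 12.62. The part of such transcripts in the result was not tested.

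Il1rn, Il18 and Il18bp differed between doses at 8 h. Il1rn was 8.84 and 8.92 at 0 h, and at 8 h it was 9.05 and 8.98 at 0.5 ng/ml, 10.17 and 10.21 at 5 ng/ml, and 10.51 and 10.47 at 50 ng/ml. Il18 was 7.00 and 6.95 at 0 h, and at 8 h it was 7.25 and 7.37 at 0.5 ng/ml, 8.94 and 8.96 at 5 ng/ml, and 8.90 and 9.23 at 50 ng/ml. Il18bp was 6.99 and 7.08 at 0 h, and at 8 h it was 8.01 and 7.89 at 0.5 ng/ml, 8.80 and 8.89 at 5 ng/ml, and 9.14 and 9.13 at 50 ng/ml. The doses did not overlap for Il1rn or Il18bp, while the upper doses overlapped for Il18. Before 4 h, Il18 lay below 0 h at every dose, at 5.92 and 5.84 at 2 h of 0.5 ng/ml, 6.02 and 6.36 at 5 ng/ml, and 6.12 and 6.13 at 50 ng/ml. At 24 h Il18 was 6.81 and 7.64 at 0.5 ng/ml, 7.02 and 7.15 at 5 ng/ml, and 7.60 and 7.59 at 50 ng/ml, so the 8 h peak at the upper doses had passed, as in BALB/c cells.

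**Figure D3:**
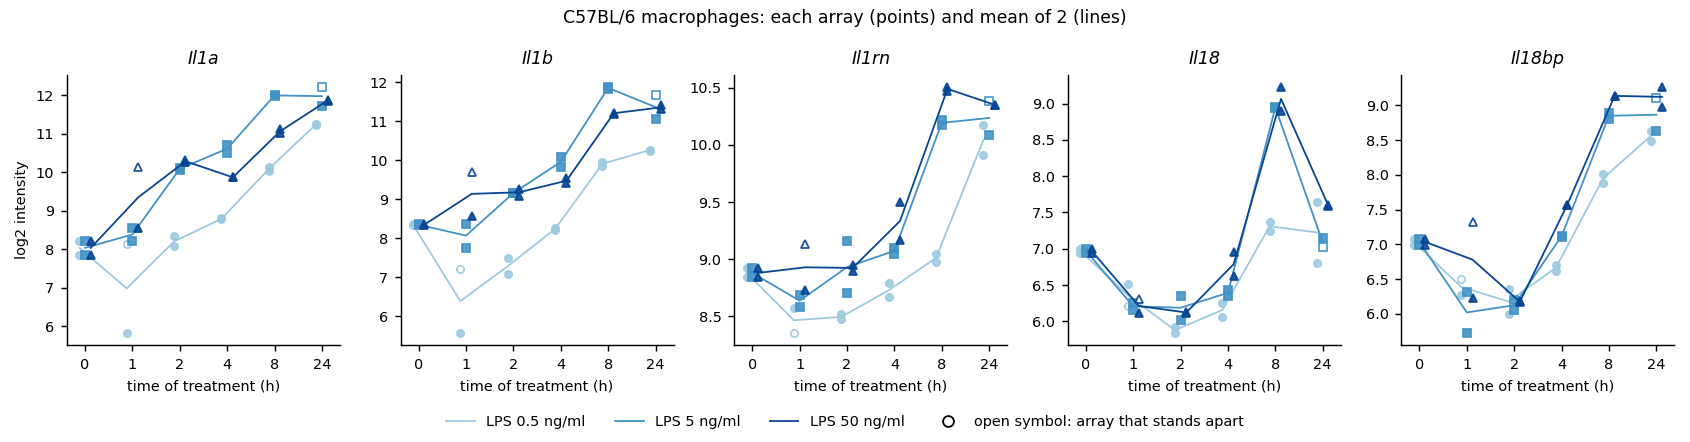
Log2 intensity (vertical axis) of the 5 genes in C57BL/6 macrophages against hours of LPS (horizontal axis, evenly spaced times) at 0.5, 5 and 50 ng/ml, with 1 point per array, lines through the mean of 2, open symbols for arrays that stand apart and the same 2 arrays at 0 h in each course. At 8 h the upper doses lie above the lowest for all 5 genes, and Il1a and Il1b are highest at 5 ng/ml.

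Over these courses all 5 members were called at each dose. At 0.5 ng/ml Il1a, Il1rn and Il18bp rose while Il1b and Il18 had their largest difference downward, where 9.11% of all genes were called. At 5 ng/ml all 5 rose, where 14.3% of all genes were called, and at 50 ng/ml all 5 rose, where 15% were. The largest difference of Il1a was 3.21 ± 0.79 at 24 h of 0.5 ng/ml (adjusted p = 0.00024), 3.96 ± 0.79 at 8 h of 5 ng/ml (adjusted p = 3.1e-05) and 3.83 ± 0.79 at 24 h of 50 ng/ml (adjusted p = 0.0015). For Il1b it was 3.51 ± 0.93 at 8 h of 5 ng/ml (adjusted p = 0.0017) and 3.01 ± 0.93 at 24 h of 50 ng/ml (adjusted p = 0.028). The second of these lost its call when any single array of 0 h, or of 8 or 24 h at that dose, was left out. Il1rn at 0.5 ng/ml rose by 1.16 ± 0.16 at 24 h, and by 0.98, under the minimum, with batch as a covariate. Il1b at 0.5 ng/ml was called for -1.96 ± 0.93 at 1 h (adjusted p = 0.004), and counted from 1 h it rose by 3.88 (adjusted p = 0.002), the opposite direction. Its changes from 0 h were -1.15 and -2.77 on the 1 h arrays, the first of which stands apart. On the 24 h arrays they were 1.93 and 1.90, a rise of nearly the same size. Il18 at 0.5 ng/ml was called for -1.09 ± 0.19 at 2 h (adjusted p = 2e-08), and counted from 1 h it had no call. Il18 at 8 h differed from 0 h by 1.97 ± 0.19 at 5 ng/ml and 2.09 ± 0.19 at 50 ng/ml. Counted from 1 h without the 5 arrays these were 2.74 and 2.94, the second from 1 well at 1 h. With all arrays, the largest change of Il1a from 1 h was a rise of 4.27 ± 0.79 at 0.5 ng/ml (24 h) and 3.61 ± 0.79 at 5 ng/ml (8 h), and that of Il1b was a rise of 3.88 ± 0.93 at 0.5 ng/ml (24 h) and 3.79 ± 0.93 at 5 ng/ml (8 h). The rises at 0.5 ng/ml were 5.42 and 4.69 without the 5 arrays, counted from the 1 well left at 1 h. At 50 ng/ml and 24 h Il1a and Il1b had differences of 2.52 ± 0.79 and 2.22 ± 0.93 from 1 h and were not called. Without the 5 arrays both rises were called, at 3.31 and 2.79, again from the 1 well left at 1 h. Il1rn rose from 1 h by 1.58, 1.60 and 1.56 and Il18bp by 2.17, 2.84 and 2.35 at 0.5, 5 and 50 ng/ml, each at its largest, which fell at 24 h for the lower doses and at 8 h for 50 ng/ml. Between 8 and 24 h Il18 alone was called at the upper doses. It differed by -1.86 ± 0.19 at 5 ng/ml (adjusted p = 4.8e-10), where 5.86% of all genes were called. At 50 ng/ml the difference was -1.47 ± 0.19 (adjusted p = 8e-08), where 6.21% were. At 0.5 ng/ml Il1rn alone was called in this step, higher by 1.03 ± 0.16 at 24 h (adjusted p = 4.2e-06), where 3.1% of all genes were, and it was 0.85 with batch as a covariate and 0.90 without replicate 2 of 24 h, where the call was lost.

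Doses were also compared directly at matching times, without the 0 h arrays. Between 50 and 5 ng/ml 0 members were called and 0.228% of all genes were by limma's F-test with the same minimum. Of the 5 members 1, Il18bp, had an unadjusted p from that test under 0.05. The 8 h difference was -0.93 ± 0.79 for Il1a and -0.65 ± 0.93 for Il1b, and without the 5 arrays -0.93 ± 0.19 (adjusted p = 0.0038, under the minimum change) and -0.65 ± 0.27 (adjusted p = 0.37). Between 50 and 0.5 ng/ml all 5 were called, higher at the upper dose by their largest difference, where 3.72% of all genes were. The 8 h differences were 1.48 ± 0.16 for Il1rn (adjusted p = 7.9e-09), 1.75 ± 0.19 for Il18 (adjusted p = 7.8e-08) and 1.18 ± 0.21 for Il18bp (adjusted p = 9.7e-06). For Il1a and Il1b the largest difference, at 1 h, was 2.36 ± 0.79 and 2.75 ± 0.93 (adjusted p = 0.026 and 0.040). Without the 5 arrays it was 2.73 and 2.99, with only 1 well left per dose at that time. Omission of single arrays ended the Il1a call in several cases and the Il1b call in most. For Il1b these cases took in arrays of both doses at 1, 2, 4, 8 and 24 h. The 1 h differences of Il1a and Il1b were 1.21 and 1.94 without replicate 2 of 0.5 ng/ml at 1 h. They were 1.57 and 2.18 without replicate 1 of 50 ng/ml at 1 h. Between 5 and 0.5 ng/ml Il1a, Il1rn and Il18 were called, where 2.16% of all genes were. By their largest difference, at 8 h, they were higher at 5 ng/ml, by 1.91 ± 0.79, 1.18 ± 0.16 and 1.64 ± 0.19. The Il1a call (adjusted p = 0.029) was lost without either 8 h array of 5 ng/ml, and without replicate 1 of 5 ng/ml at 4 h. It was also lost without replicate 2 of 0.5 ng/ml at 2 h, or without any single array of 0.5 ng/ml at 4 or 8 h. Il1b differed by 1.95 ± 0.93 (adjusted p = 0.070) and was called without the 5 arrays (adjusted p = 2.2e-10).

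The strains share LPS at 5 ng/ml, and BALB/c cells reached higher agonist levels earlier. Before treatment Il1a was 4.92 and 4.85 in BALB/c and 8.21 and 7.86 in C57BL/6 cells, and Il1b was 4.22 and 4.37 in BALB/c and 8.36 and 8.33 in C57BL/6 cells. At 0 h 2 members were called, both lower in BALB/c, where 2.36% of all genes were called: Il1a by -3.15 ± 0.79 (adjusted p = 0.0051) and Il1b by -4.05 ± 0.93 (adjusted p = 0.0021). Il18 and Il18bp were also lower in BALB/c at 0 h, by -0.86 ± 0.19 and -0.96 ± 0.21, under the minimum change. After 1 h of LPS the order was turned, with Il1a at 10.91 and 11.11 in BALB/c and 8.56 and 8.21 in C57BL/6 cells. Il1b at 1 h was 11.32 and 11.68 in BALB/c and 8.37 and 7.76 in C57BL/6 cells. The gap narrowed by 8 h, when Il1b was 12.84 and 12.80 in BALB/c and 11.88 and 11.83 in C57BL/6 cells. It had not closed at 24 h, when Il1b was 12.25 and 12.80 in BALB/c and 11.67 and 11.06 in C57BL/6 cells. The first of these C57BL/6 arrays stands apart. In levels at matching times 4 members were called, Il1a, Il1b, Il1rn and Il18, where 5.53% of all genes were. Each was higher in BALB/c by its largest difference. At 2 h Il18 was lower in BALB/c, with means of 5.85 there and 6.19 in C57BL/6 cells. The 1 h difference was 2.63 ± 0.79 for Il1a (adjusted p = 0.026), 3.43 ± 0.93 for Il1b (adjusted p = 0.004) and 1.04 ± 0.16 for Il1rn (adjusted p = 8.9e-08), and the 4 h difference was 1.08 ± 0.19 for Il18 (adjusted p = 4.2e-05). Within the larger batch Il1rn differed by 0.85, and without replicate 1 of BALB/c LPS at 4 h Il18 differed by 0.89, both under the minimum. The Il1a call on levels was lost without any single 1 h array of either strain (adjusted p = 0.056 to 0.088), and its call at 0 h without replicate 1 of C57BL/6 (-2.97, adjusted p = 0.067). Il18bp was not called (0.47 ± 0.21 at 4 h, adjusted p = 0.29).

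**Figure D4:**
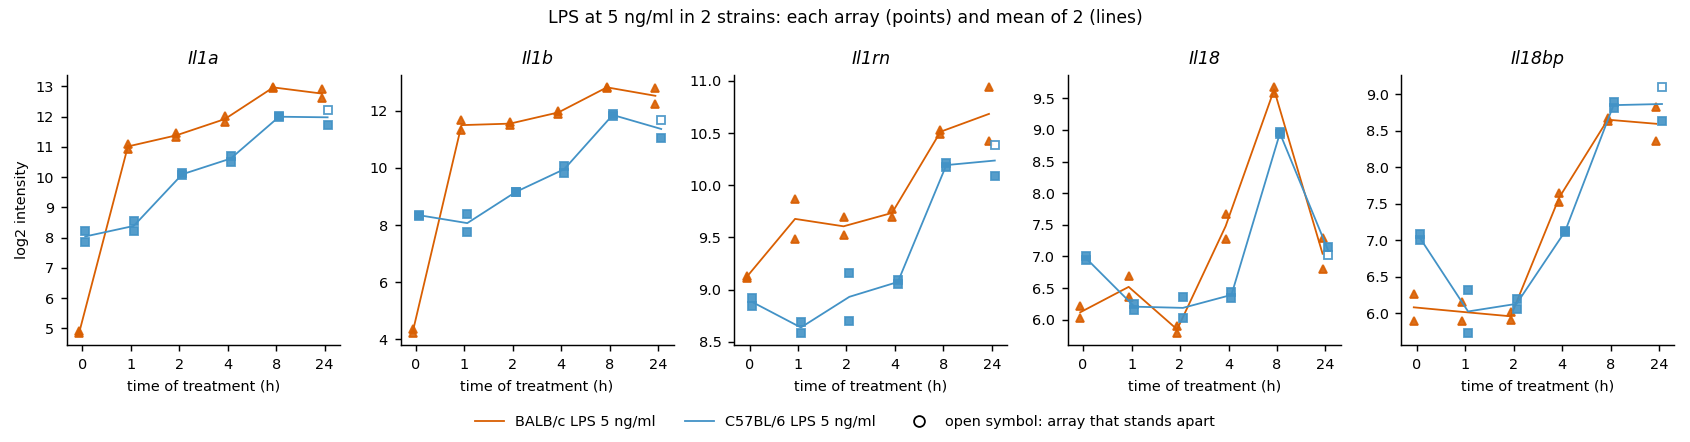
Log2 intensity (vertical axis) of the 5 genes in BALB/c (triangles) and C57BL/6 (squares) macrophages against hours of LPS at 5 ng/ml (horizontal axis, evenly spaced times), with 1 point per array, lines through the mean of 2 and open symbols for arrays that stand apart. Il1a and Il1b are lower in BALB/c at 0 h and higher in BALB/c at 1 to 24 h.

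The response, the change from 0 h, differed between strains for 4 members, Il1a, Il1b, Il18 and Il18bp, each larger in BALB/c, where 4.68% of all genes were called. The difference of changes at 1 h was 5.78 ± 1.12 for Il1a (adjusted p = 0.0043) and 7.48 ± 1.32 for Il1b (adjusted p = 0.00083), and at 4 h 1.94 ± 0.27 for Il18 (adjusted p = 9.7e-06) and 1.42 ± 0.29 for Il18bp (adjusted p = 0.015). For Il1rn it was 0.80 ± 0.22 (adjusted p = 0.069). These values contain the gap at 0 h, of -3.15 for Il1a and -4.05 for Il1b. Counted from 1 h, 0 of the 5 members were called with all arrays. Without the 5 arrays, Il1a and Il1b were called from 1 h in the opposite direction, with differences of -1.66 ± 0.26 and -2.47 ± 0.38 at 8 h (adjusted p = 0.0001 and 0.00015). At 0 h Nos2 was 3.54 and 3.78 in BALB/c and 10.63 and 10.45 in C57BL/6 cells, and the part of such transcripts in the strain difference was not tested.

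The other genes of the pathway came from lists of ligands, receptors, processing and release factors, and signalling proteins. Of 17 measured processing and release genes 5 rose and 0 fell with IFN-beta, 4 rose and 0 fell with IFN-gamma, and 7 rose and 4 fell with BALB/c LPS, with median largest differences of 0.62, 0.48 and 0.61 against -0.19 over all genes in each course. Over all genes the share called was 7.92% with IFN-beta, 5.37% with IFN-gamma and 17.2% with BALB/c LPS. With IFN-gamma 3 of the 17 rose without the 5 arrays, and Casp4 rose by 2.09 ± 0.15. Casp1, which cuts the precursors of IL-1 beta and IL-18, rose by 1.71 ± 0.23 with IFN-beta at 4 h and 1.12 ± 0.23 with IFN-gamma at 8 h. Casp4, the mouse caspase that senses LPS inside the cell, rose by 2.23 ± 0.13 with IFN-beta, 1.95 ± 0.13 with IFN-gamma and 2.50 ± 0.13 with LPS. Nlrp3, the inflammasome sensor whose supply is known to limit IL-1 beta processing, was 11.16 and 11.00 at 2 h of LPS, against 8.50 and 8.39 at 0 h, a rise of 2.64 ± 0.12 (adjusted p = 2.4e-21). It was not called in either interferon course, and at 4 h it differed by -3.03 ± 0.12 between IFN-beta and LPS. The DNA sensor Aim2 rose by 1.65 ± 0.15 with IFN-beta, and the sensor Nlrc4 rose by 1.19 ± 0.21 with IFN-gamma. In C57BL/6 cells 7, 8 and 8 of the 17 rose and 2, 3 and 3 fell at 0.5, 5 and 50 ng/ml, where 9.11%, 14.3% and 15% of all genes were called. Mefv, the pyrin sensor, was higher there by 1.90, 2.49 and 2.69 at 24 h.

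Of 7 measured receptors 1 rose and 1 fell with IFN-beta, 1 rose and 0 fell with IFN-gamma, and 1 rose and 3 fell with BALB/c LPS, where 7.92%, 5.37% and 17.2% of all genes were called. Il18rap, the signalling chain of the IL-18 receptor, rose by 1.97 ± 0.20 with IFN-beta and 2.90 ± 0.20 with IFN-gamma, both at 4 h, and differed by -1.52 ± 0.20 with LPS at 24 h. Il1rl2, the IL-36 receptor, rose by 2.69 ± 0.18 with LPS at 24 h, when Sigirr, an inhibitory receptor of the family, differed by -1.29 ± 0.17. Il1r2, the decoy receptor for IL-1, was 4.36 and 4.40 at 24 h of BALB/c LPS, against 5.75 and 5.58 at 0 h, a difference of -1.29 ± 0.21 (adjusted p = 4.9e-07). In the C57BL/6 courses 1, 1 and 2 receptors rose and 1, 2 and 2 fell at 0.5, 5 and 50 ng/ml, against 9.11%, 14.3% and 15% of all genes called. With IFN-gamma Il18rap rose without the 5 arrays by 2.90 ± 0.25, and 1 receptor fell at 5 ng/ml in place of 2. Median largest differences of the receptors were -0.42, -0.50 and -0.65 for IFN-beta, IFN-gamma and BALB/c LPS, against -0.19 over all genes in each.

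Among 12 measured signalling genes 2 rose and 1 fell with IFN-beta, 3 rose and 0 fell with IFN-gamma, and 4 rose and 0 fell with BALB/c LPS, with medians of 0.23, -0.04 and 0.63 against -0.19 over all genes in each. The shares of all genes called in these courses were 7.92%, 5.37% and 17.2%. With IFN-gamma 2 rose without the 5 arrays. In C57BL/6 cells 3, 4 and 4 rose and 0 fell at 0.5, 5 and 50 ng/ml, where 9.11%, 14.3% and 15% of all genes were called. Peli1, a ubiquitin ligase of this pathway, rose by 2.63 ± 0.14 with IFN-beta, 1.42 ± 0.14 with IFN-gamma and 3.03 ± 0.14 with LPS, all at 4 h. Irak3, a kinase-like inhibitor of the receptor complex, rose by 2.22 ± 0.13 with LPS at 24 h and differed by -1.01 ± 0.13 with IFN-beta at 8 h. Of 6 other ligands of the family 0 were called with either interferon and 2 rose with BALB/c LPS. They were Il1f9, now named Il36g, with a rise of 3.13 ± 0.31 at 24 h, and Il1f6, now Il36a, with 1.14 ± 0.24 at 8 h. Il1f9 also rose in C57BL/6 cells at 24 h, by 5.01 ± 0.31 at 0.5 ng/ml, 3.85 ± 0.31 at 5 ng/ml and 3.96 ± 0.31 at 50 ng/ml. Among the ligands it was the 1 gene called between doses, lower at 50 than at 0.5 ng/ml by -1.04 ± 0.31 (adjusted p = 0.018) and lower at 5 than at 0.5 ng/ml by -1.15 ± 0.31 (adjusted p = 0.035). From the lists Il1rl1, Ctsb, Irak1, Irak4 and Chuk were not analysed here.

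Across the 32 group means Il1a and Il1b had a Pearson correlation of 0.97, and of 0.97 within each strain's 16 groups. Groups share controls and arrays that stand apart, so these correlations are descriptions. Il1rn tracked Il1b at 0.35 in BALB/c and 0.91 in C57BL/6 groups, where the only treatment was LPS. Il18 and Il18bp gave 0.51 in BALB/c and 0.86 in C57BL/6 groups. The genes most like each member by this measure, without gene-model names, differed between members. For Il1a they were Il1b, Sod2, Mir155, Clec4e and Malt1 (0.91 to 0.97), and for Il1b they were Il1a, Traf1, Mir155, Ptgs2 and Clec4e (0.91 to 0.97). For Il1rn they were Kcnab1, Ddx60, Trim12c, Ube2l6 and Crbn (0.87 to 0.88). For Il18 they were Ankib1, Bco2, Atp10a, Hdc and Xrn1 (0.93 to 0.95), of which Bco2 overlaps Il18 in RefSeq. For Il18bp they were the proteasome subunits Psmb8 and Psmb10, with H2-T23, Tapbpl and Axl (0.95 to 0.97). By Spearman correlation 12 of the 25 stayed among the first 5, and Bco2 and Atp10a did not.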

How the data were processed

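Biotin-labelled total RNA of 64 wells, 250 ng each, was hybridised to Affymetrix arrays, with Affymetrix Expression Console 1.1 listed in the submitters' processing notes. Each deposited value is an intensity of 1 probe set on a linear scale (2.49 to 17782, array medians 25.6 to 29.0), and the authors' normalisation is not given in the sources used here. The scale was read from the values. The number of arrays limits the precision. The log2 of the deposited intensity was used with no further normalisation and no filter on dim values, except that the search for arrays that stand apart subtracted fitted batch differences. Of 35556 probe sets, 21218 carry 1 gene symbol, 1881 several and 12457 none, and the brightest probe set per symbol left 18820 genes.

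All 64 arrays entered 1 fit of 32 group means with limma 3.58.1 in R 4.3.3 (32 residual degrees of freedom). Courses, pairs of courses and the strain response were tested by limma's F-test over 5 times, other contrasts by its moderated test, with Benjamini-Hochberg adjustment over all genes per comparison, and called at an adjusted p under 0.05 with 1 log2 or more at 1 time. A printed adjusted p covers all times of its comparison. The direction of a call is that of the largest difference and need not hold at every time. A log2 difference understates changes from near background. Replicate numbers did not pair the wells (median correlation of deviations 0.0046 over 496 group pairs, 46 above 0.1).

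Members and gene lists were chosen with earlier results of these data known. Named genes are the 5 members, up to 3 called genes with the largest difference per list and comparison, and the 5 genes most correlated with each member. Values of Il1r2, and of single arrays for Cxcl1, Cxcl2, Nos2, Lcn2, Hal and the other LPS-type transcripts named, were chosen after their values were seen. Promoter sequences are from RefSeq (GRCm38.p6), with all 5 members matched by symbol. The array's genome build is not given in the sources used here, so no probe coordinates are printed.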

Additional observations from a re-analysis of the deposited data

Results flagged for a closer look

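The response to LPS at 5 ng/ml differed between the strains for 4 members by the test of the difference of changes from 0 h, each larger in BALB/c than in C57BL/6. The largest differences were 5.78 for Il1a and 7.48 for Il1b at 1 h, and 1.94 for Il18 and 1.42 for Il18bp at 4 h. These changes use the C57BL/6 0 h arrays, which held some LPS-type transcripts. Counted from 1 h, 0 of the 5 members were called with all arrays. The largest differences of Il1a and Il1b were then -1.84 at 24 h and -2.47 at 8 h, the opposite direction. For Il18bp the call was lost without replicate 1 of BALB/c 0 h (1.24) or replicate 2 of C57BL/6 0 h (1.38).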

How the results depend on the processing

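Single members kept their side of the threshold, and called ones their direction, in 1455 of 1540 values over the other alternatives. With 1 array left out this held in 1257 of 1320 values. Direction was not compared for members without a call. Averaging a gene's probe sets, or testing each of them, left the members' own values unchanged, since each has 1 probe set. Counted from 1 h, directions turned for Il1b at 0.5 ng/ml (3.88), for the largest difference of Il1a with IFN-gamma (-2.38 at 8 h, though 1.93 at 4 h), and for the strain response of Il1a (-1.84) and Il1b (-2.47). Without the 5 arrays as well, an alternative added after seeing the data, they turned for Il1b at 0.5 ng/ml (4.69), for Il1a (-0.93) and Il1b (-0.14) with IFN-gamma at 4 h, and for the strain response of Il1a (-1.66) and Il1b (-2.47). The replicate block moved 1 call, Il1b with IFN-gamma (3.21, adjusted p = 0.051), and replicate numbers did not pair the wells. A fit with trend and robust spread ended the Il1b calls with IFN-gamma, at 50 ng/ml and between 50 and 0.5 ng/ml, and the Il1a calls between 5 and 0.5 ng/ml and between strains (adjusted p = 0.051 to 0.083). The causes were not tested.

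Members called, of 5, changed as follows. From 1 h they were 2 with IFN-beta (without Il1rn), 4 at 0.5 ng/ml (without Il18), 2 with IFN-gamma, 3 with BALB/c LPS, 3 at 50 ng/ml and 0 in the strain response, and 2 in the strain response without the 5 arrays as well. IFN-beta had 5 without the 5 arrays (with either choice in the pair at 24 h, the second choice added after seeing the data), with only the arrays compared and in the larger batch alone. Its 24 h step had 3 without the 5 arrays by either choice, 3 with only the arrays compared, 2 with the batch covariate and 4 in the larger batch. IFN-gamma had 2 with only the arrays compared (without Il1a and Il1b). The 24 h step at 0.5 ng/ml had 2 without the 5 arrays by either choice, 2 with only the arrays compared, 0 after quantile normalisation and 0 with the batch covariate. With no minimum change, the 24 h steps of IFN-beta, IFN-gamma and 0.5 ng/ml had 2 each and the strains at 0 h 4. With 1 array left out, members called ranged between 1 and 2 for both interferon steps, 2 and 4 for strain levels, 1 and 3 for strains at 0 h, 3 and 5 for 50 against 0.5 ng/ml, 0 and 1 for 50 against 5 ng/ml, and 0 and 1 for the step at 0.5 ng/ml.

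Genes called between 50 and 5 ng/ml were 26 with an offset of 16, 13 with only the arrays compared, 72 in the larger batch, 122 without the 5 arrays and 29 to 147 with 1 array left out. With the offset the IFN-gamma step had 98, and in the larger batch IFN-beta had 977. With no minimum change, courses had 7037 (IFN-beta), 5446 (IFN-gamma), 8979 (BALB/c LPS), 7556, 8728 and 8733 (0.5, 5 and 50 ng/ml), and 24 h steps had 2992, 1115, 4955, 3232, 4944 and 5103 in the same order. IFN-beta against IFN-gamma had 3436, both against LPS 7754 and 7920, 50 against 5 ng/ml 181, 50 against 0.5 ng/ml 4766 and 5 against 0.5 ng/ml 3320. Strain levels had 5870, the strain response 2943 and 0 h 1802. Without the 5 arrays, a group left with 1 array is assumed to vary like the others. In the larger batch alone IFN-beta has no arrays at 4 h, so its counts and calls there come from the other times only. Low Il1a and Il1b with IFN-beta lie near background, which limits their folds.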
